A study of Homo sapiens with 6 samples.

Results

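The genes described here lie at the distal end of the short arm of chromosome 3, from TRNT1 near the tip to XYLB. They are 58 protein-coding genes, of 19775 genes read from the arrays. The list follows their order along the arm, except that it puts KAT2B before RAB5A, which RefSeq places first. The 58 genes were picked with the difference between the 2 lines already in view, so that difference describes them and is not tested on them. Of the 58, 56 had a probe set of their own, which gave 144 probe sets of 54613. FANCD2, a DNA crosslink repair gene, and GLB1, which encodes lysosomal beta-galactosidase, had none.

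The study set PC9, a line of lung adenocarcinoma cells sensitive to gefitinib, which blocks the kinase of EGFR, against PC9/gef. The latter was derived from parental PC9 under lasting exposure to rising gefitinib concentrations and is resistant to the drug. Both were grown in RPMI-1640 medium with fetal bovine serum, and total RNA of 3 samples of each was hybridized to Affymetrix arrays, 1 array per sample. The labels call the 3 samples biological replicates but do not say that they came from separate cultures, so the p-values measure only the spread between these samples. PC9/gef is 1 resistant line, and a difference between the lines belongs to this pair. The arrays measured bulk RNA, in which fewer cells of a kind and less RNA per cell cannot be told apart.

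The short arm of chromosome 3 is long known as a region that carries many housekeeping genes together with tumour suppressor genes, among them VHL, and receptors such as TGFBR2. Its distal end mixes genes of unrelated function that do not act in one pathway. They make transfer RNAs and spliceosome parts, repair DNA, tag proteins with ubiquitin, modify histones, carry vesicles and receive signals at the cell surface. Several sit head to head, on opposite strands, with their start sites close together.

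All values are on the log2 scale, so a difference of 1 is a change of 2-fold. A gene was called above background level where its mean in at least 1 line exceeded 2.65, the 95th percentile of 135 olfactory receptor probe sets, which a lung line should not express. The 6 arrays were alike, with a correlation of at least 0.9992 within a line and at most 0.9944 between lines. All 7 epithelial markers were above background. Of the lung lineage markers NKX2-1, SFTPC and NAPSA were at background level in both lines, and SFTPB stood at 4.31 in PC9. Of the fibroblast, leukocyte and endothelial markers, 1 each was above background, with COL1A1 higher by 0.52, LYZ lower by a difference of -1.09 and PECAM1 lower by a difference of -2.40 in PC9/gef, and the part of these in the values below was not tested.

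Nearly all of the distal 3p genes read lower in PC9/gef. Of the 54 above background level, 53 had a negative difference and only TGFBR2, the type II TGF-beta receptor, had a positive one. Among all 11955 genes above background 6148 had a negative difference. The median difference was -0.56, which is 67.8% of the PC9 level, and the middle of the list ran from 60.3% to 76.3% (quartiles). Between -1 and -0.25 lay 39 of the 54, or 72.2%, against 16.9% of all 11955 genes above background. As the genes were picked on this difference, that share only describes them. By the limma fit over all genes, with an adjusted p threshold of 0.05, 44 genes were called lower and 1 higher. Of all genes above background 22.2% were called lower and 23.8% higher, and since the genes were picked on this contrast nothing is read from their counts. More than 2-fold lower were 4 of the 54 genes, where 2.22% of all genes above background were. More than 2-fold higher was none, where 2.55% of all genes above background were.

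**Figure D1:**
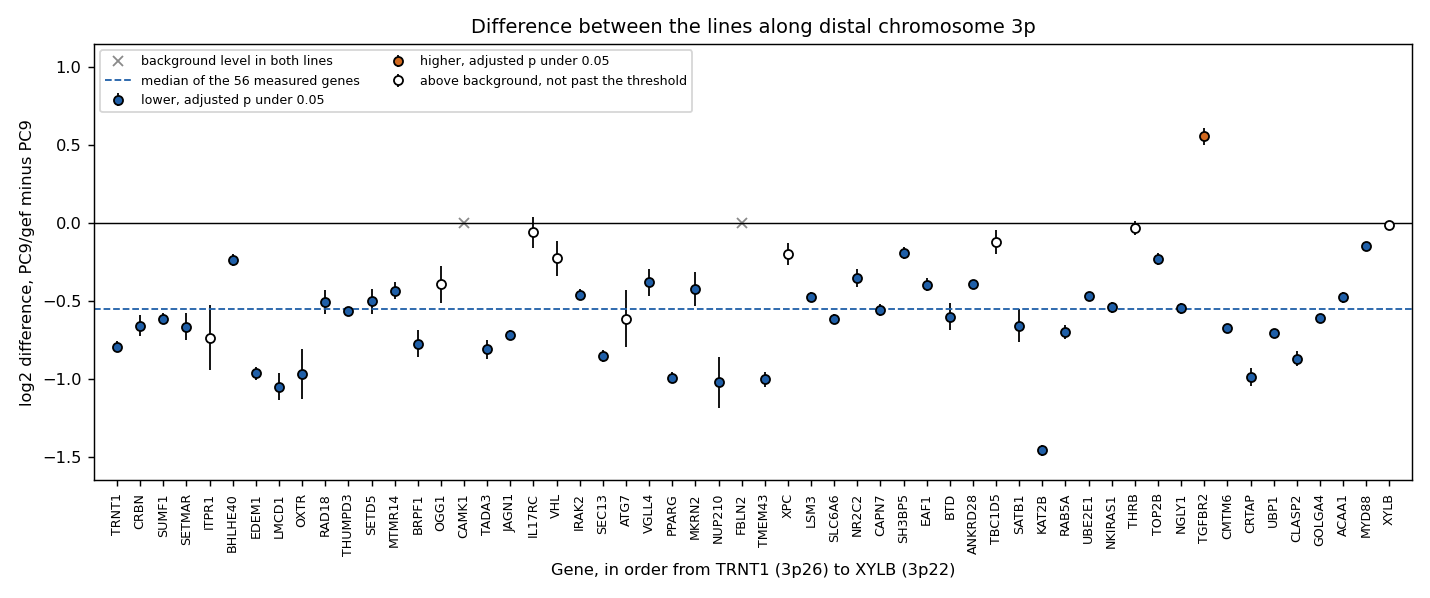
Each point is 1 of the 56 measured genes in the order of the list, with the difference of the means of 3 PC9/gef and 3 PC9 arrays on the vertical axis (log2) and its standard error from limma as the bar. All points except TGFBR2 at 0.56 lie at or below 0, and the dashed median is at -0.55.

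The difference was seen on each array and not on 1 alone. Relative to each gene's mean over the 6 arrays, the median of the 54 genes was 0.27, 0.31 and 0.25 on the PC9 arrays and -0.24, -0.28 and -0.29 on the PC9/gef arrays. The same median over all genes above background stayed between -0.013 and 0.0075. In 48 genes every PC9/gef array lay below every PC9 array, in 1 every one lay above, and in 5 the arrays overlapped (IL17RC, VHL, TBC1D5, THRB and XYLB). Of all genes above background 33.8% had every PC9/gef array below. The replicate spread was small, with a median pooled SD of 0.058 (n = 3 per line) against 0.064 over all genes, and was highest at 0.27 in ITPR1.

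**Figure D2:**
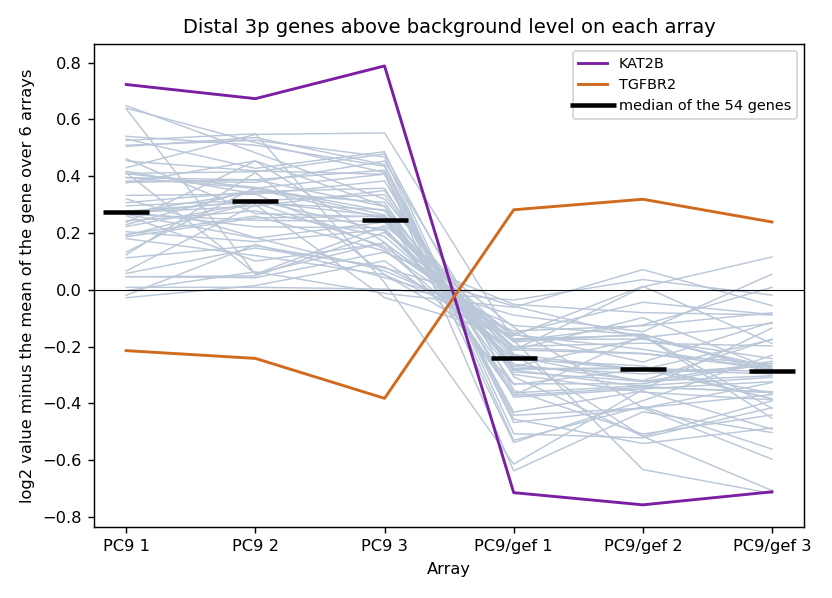
Each line is 1 of the 54 genes above background level, drawn as its log2 value on each array minus its own mean over the 6 arrays, and black bars are the median over the genes on that array. The medians are 0.25 to 0.31 on the PC9 arrays and -0.29 to -0.24 on the PC9/gef arrays, with TGFBR2 running the other way.

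Before the single genes, the stretches between head-to-head neighbours are shown, since neighbours that share a promoter region can be read side by side. RefSeq promoter windows, from 250 bases before to 50 after the start, were given for 53 of the 58 genes on GRCh38.p14. Members share window sequence with a gene on the opposite strand in 14 pairs, and in 7 of these both genes were measured above background. Both genes of all 7 pairs had a negative difference. So had 106 of all 111 genes above background from TRNT1 to XYLB, and nothing is read from the pairs. The stretches of 3 such pairs follow on the plus strand, with the bases between the start sites in capitals. XPC, which senses DNA damage, faces LSM3, a spliceosome part, at chr3:14178567-14178851. CHCHD4, a mitochondrial import factor, faces TMEM43, a nuclear envelope protein, at chr3:14124821-14125101. HACL1, a peroxisomal enzyme, faces BTD, which recycles biotin, at chr3:15601520-15601794. The last line is the window of TGFBR2 at chr3:30606106-30606405 (plus strand), shown because this gene differs in direction, with the first transcribed bases in capitals.
XPC and LSM3: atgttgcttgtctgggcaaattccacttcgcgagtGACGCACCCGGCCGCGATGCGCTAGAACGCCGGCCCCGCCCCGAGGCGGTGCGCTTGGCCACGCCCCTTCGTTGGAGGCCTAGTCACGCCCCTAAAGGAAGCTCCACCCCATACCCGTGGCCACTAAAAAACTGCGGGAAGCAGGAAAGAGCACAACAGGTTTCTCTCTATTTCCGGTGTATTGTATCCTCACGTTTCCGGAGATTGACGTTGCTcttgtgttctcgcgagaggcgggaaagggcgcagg
CHCHD4 and TMEM43: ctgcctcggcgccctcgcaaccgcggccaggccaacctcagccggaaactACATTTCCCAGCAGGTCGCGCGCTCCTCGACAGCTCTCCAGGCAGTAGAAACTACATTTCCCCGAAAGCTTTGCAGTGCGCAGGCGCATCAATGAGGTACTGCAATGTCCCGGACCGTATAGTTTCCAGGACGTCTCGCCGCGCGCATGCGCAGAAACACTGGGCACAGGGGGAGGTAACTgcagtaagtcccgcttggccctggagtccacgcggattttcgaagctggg
HACL1 and BTD: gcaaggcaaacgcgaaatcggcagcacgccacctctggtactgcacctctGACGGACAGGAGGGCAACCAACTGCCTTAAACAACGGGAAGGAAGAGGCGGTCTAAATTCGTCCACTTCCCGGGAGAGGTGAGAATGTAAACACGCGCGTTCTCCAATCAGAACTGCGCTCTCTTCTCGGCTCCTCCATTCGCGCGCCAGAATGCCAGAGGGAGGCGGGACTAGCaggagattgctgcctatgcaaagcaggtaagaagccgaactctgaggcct
TGFBR2: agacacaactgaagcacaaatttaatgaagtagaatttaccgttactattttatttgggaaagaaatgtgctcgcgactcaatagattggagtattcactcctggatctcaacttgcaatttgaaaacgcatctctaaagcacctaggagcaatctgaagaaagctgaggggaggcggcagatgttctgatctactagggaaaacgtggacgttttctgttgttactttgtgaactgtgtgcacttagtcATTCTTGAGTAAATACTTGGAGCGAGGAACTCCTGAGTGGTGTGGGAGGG

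Within a pair the 2 sides did not always lie at the same difference. XPC stood at -0.20 and LSM3 at -0.47. CHCHD4, which is not on the list, stood at -0.51, and TMEM43 was at 49.9% of its PC9 level. HACL1, also not on the list, stood at -0.46 and BTD at -0.60.

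The windows of the listed genes are rich in CpG. An observed to expected CpG ratio over 0.6 was found in 47 of 53 windows, or 88.7%, against 48.9% of all 27305 windows, and the median GC content was 65.7% against 58.3%. The letters TATAAA, on either strand, occurred in 1 window (1.89%), against 12.0% of all windows. CCAAT occurred in 11 windows (20.8%), against 35.7%, and CACGTG in 5 windows (9.43%), against 7.43%. Each motif was searched on both strands and counted apart from the others, and a match describes the window without naming a site. The set of all windows was not limited to protein-coding genes or to genes above background, as nearly all listed genes were. A trait of genes above background and one of this stretch therefore cannot be told apart here.

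The listed genes are taken below in groups by function, of 3 to 13 measured genes. Counts called lower in a group stand beside the 22.2% of all genes above background, and nothing is read from them. The ranges of the groups overlap, and differences between their medians were not tested. The 3 genes for RNA handling were all lower. TRNT1 adds the CCA end to transfer RNAs. It read 9.37, 9.38 and 9.41 on the PC9 arrays and 8.54, 8.57 and 8.66 on the PC9/gef arrays, a difference of -0.79 (SE 0.036). THUMPD3, which methylates transfer RNA, stood at a difference of -0.56 and LSM3 at -0.47.

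Protein turnover genes numbered 8, all above background, and 6 were called lower, with a median of -0.55. EDEM1 hands misfolded glycoproteins from the endoplasmic reticulum to degradation. It read 8.77, 8.67 and 8.73 in PC9 and 7.73, 7.72 and 7.83 in PC9/gef, so the lines did not overlap and differed by -0.96 (SE 0.043). CRBN, the substrate receptor of a cullin 4 ligase that binds thalidomide, read 8.68, 8.90 and 8.74 against 8.16, 8.10 and 8.08. UBE2E1, a ubiquitin-conjugating enzyme, stood at a difference of -0.47 and NGLY1, which strips sugar chains from misfolded proteins, at -0.55. The protease CAPN7 stood at -0.56 and MKRN2, a ring-finger ligase, at -0.42. VHL, which directs the hypoxia-inducible factors to degradation, read 4.57, 4.80 and 4.47 in PC9 and 4.34, 4.51 and 4.31 in PC9/gef. These arrays overlapped, and the difference of -0.23 (SE 0.11) was not called. ATG7, an autophagy enzyme, was not called either, at -0.61 with an SE of 0.18, and its PC9 arrays spread from 6.45 to 7.03.

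Genome maintenance genes were nearer to 0, with a median of -0.39 and 3 of 5 called lower. SETMAR, a fusion of a histone methyltransferase and a transposase, read 5.96, 6.04 and 5.75 against 5.25, 5.31 and 5.20, a difference of -0.67. RAD18, which ubiquitinates PCNA at stalled forks, stood at a difference of -0.50 and TOP2B, a topoisomerase, at -0.23. XPC read 6.78, 6.79 and 6.94 in PC9 and 6.56, 6.61 and 6.75 in PC9/gef, and OGG1, which removes oxidized guanine, stood at -0.39 (SE 0.12). Neither XPC nor OGG1 was called, although every PC9/gef array of both lay below every PC9 array.

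Chromatin and transcription genes numbered 13, of which 12 were called lower, with a median of -0.66. KAT2B, a histone acetyltransferase, had the most negative difference of the listed genes. It read 7.58, 7.53 and 7.64 in PC9 and 6.14, 6.10 and 6.14 in PC9/gef, which is 36.4% of the PC9 level, or a difference of -1.46 (SE 0.035). The 3 arrays of each line lay close together and the lines stood far apart, but KAT2B has only 1 probe set, so no other reading of its size was at hand. LMCD1, a transcriptional cofactor, stood at -1.05, PPARG, a nuclear receptor of fat metabolism, at -0.99 and TADA3, an adaptor of acetyltransferase complexes, at -0.81. PPARG read 11.23, 11.20 and 11.13 in PC9 and 10.24, 10.15 and 10.21 in PC9/gef. BRPF1 and SETD5, both chromatin regulators, stood at -0.77 and -0.50, and SATB1, a genome organizer, at -0.66. Of the remaining transcription regulators UBP1 stood at -0.70, EAF1, which binds elongation factors, at -0.39, VGLL4, a cofactor of TEAD proteins, at -0.38, the nuclear receptor NR2C2 at -0.35 and BHLHE40, a repressor linked to the circadian clock, at -0.24. THRB, the thyroid hormone receptor beta, was the one not called, at 5.98, 6.05 and 5.97 against 5.92, 6.06 and 5.93.

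Membrane traffic and nuclear pore genes had the most negative median of the groups, -0.72, with 8 of 9 called lower. SEC13, shared by the COPII vesicle coat and the Y complex of the nuclear pore, read 12.68, 12.65 and 12.63 in PC9 and 11.80, 11.87 and 11.74 in PC9/gef. NUP210, a membrane protein of the pore, read 7.35, 7.46 and 7.47 against 6.74, 6.28 and 6.20, a difference of -1.02 (SE 0.16). TMEM43 read 9.21, 9.23 and 9.17 against 8.17, 8.29 and 8.14. All 3 genes had clear gaps between the lines. CLASP2, which steadies microtubule ends, stood at a difference of -0.87, JAGN1, of the secretory pathway, at -0.72, RAB5A, the early endosome GTPase, at -0.70 and GOLGA4, a Golgi tether, at -0.61. TBC1D5, a regulator of endosome sorting, was not called, at -0.12 (SE 0.076), while ANKRD28 was, at -0.39.

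Metabolism, lysosome and matrix genes had a median of -0.61, with 5 of 6 above background called lower. CRTAP helps to modify collagen. It read 10.28, 10.31 and 10.21 in PC9 and 9.31, 9.36 and 9.18 in PC9/gef, a difference of -0.99. SUMF1, which activates sulfatases, stood at -0.61, SLC6A6, the taurine transporter, at -0.61, BTD at -0.60 and ACAA1, a peroxisomal thiolase, at -0.48. XYLB, a xylulokinase, was barely above background, at 2.82, 2.82 and 2.82 against 2.78, 2.85 and 2.79, and was not called. FBLN2, a matrix protein, was at background level on all arrays (2.27 in both lines). A probe set shared by GLB1 and its neighbour TMPPE read 8.84, 8.85 and 8.79 in PC9 and 8.29, 8.21 and 8.21 in PC9/gef.

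Receptors and signalling genes had the widest range, from -0.97 to 0.56 with a median of -0.44. Of 10 above background 7 were called lower and 1 higher. The upper end was TGFBR2 alone, and the others reached only up to -0.06. Chromatin and transcription genes ran from -1.46 to -0.03, so the width of the range here rests on that 1 gene. OXTR, the oxytocin receptor, read 6.43, 6.26 and 6.10 in PC9 and 5.55, 5.26 and 5.07 in PC9/gef, a difference of -0.97. CMTM6, which keeps PD-L1 at the cell surface, read 11.53, 11.57 and 11.58 against 10.86, 10.89 and 10.92, and the lines were well apart. NKIRAS1, a Ras-like protein that restrains NF-kappaB, stood at a difference of -0.54 and IRAK2, a kinase of interleukin-1 signalling, at -0.46. MTMR14, a lipid phosphatase, stood at -0.43 and SH3BP5 at -0.19. MYD88, the adaptor of Toll-like and interleukin-1 receptors, read 9.74, 9.74 and 9.83 against 9.65, 9.62 and 9.61, a difference of only -0.15 (SE 0.030). ITPR1, an intracellular calcium channel, was not called at -0.73 (SE 0.21), and IL17RC, a subunit of the interleukin-17 receptor, was not called at -0.06 (SE 0.099). CAMK1, a calcium-dependent kinase, was at background level at 2.39 in both lines.

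TGFBR2, whose promoter window is printed above, was the one exception in direction. It read 9.02, 8.99 and 8.85 in PC9 and 9.52, 9.55 and 9.47 in PC9/gef, which is 147% of the PC9 level, or a difference of 0.56 (SE 0.054). Every PC9/gef array lay above every PC9 array. Its other probe set was at background level, at 2.35 in both lines, so the positive difference rests on 1 probe set. The neighbours of TGFBR2 in the list, NGLY1 and CMTM6, stood at -0.55 and -0.67.

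Taken in long stretches the list stood at similar medians, while shorter runs of genes differed. From TRNT1 to SEC13 the median of 21 genes above background was -0.66, from ATG7 to THRB that of 22 genes was -0.51 and from TOP2B to XYLB that of 11 genes was -0.55. Among all genes above background from TRNT1 to XYLB, listed or not, the median of 5 neighbours ran from -0.96 to -0.08.

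The further probe sets of each gene mostly pointed the same way. Of the 144 probe sets 101 were above background, 54 of them the ones that represent a gene and 47 further ones. Of the 47, 44 were negative, or 93.6%, against 57.4% of the 9602 further probe sets of all genes. They measure the same RNA in the same contrast and are a description too. The 3 positive ones belonged to TBC1D5 (0.011), SATB1 (0.069) and THRB (0.15). Of 31 genes with several probe sets above background, 28 had all of them negative and 3 had both signs. The size differed between probe sets of a gene, by a median of 0.37. In SLC6A6 they ran from -1.44 to -0.11, and the ends were both dim. In LMCD1 they were -1.05 and -0.07, and the 5 of CRTAP ran from -1.06 to -0.29.

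**Figure D3:**
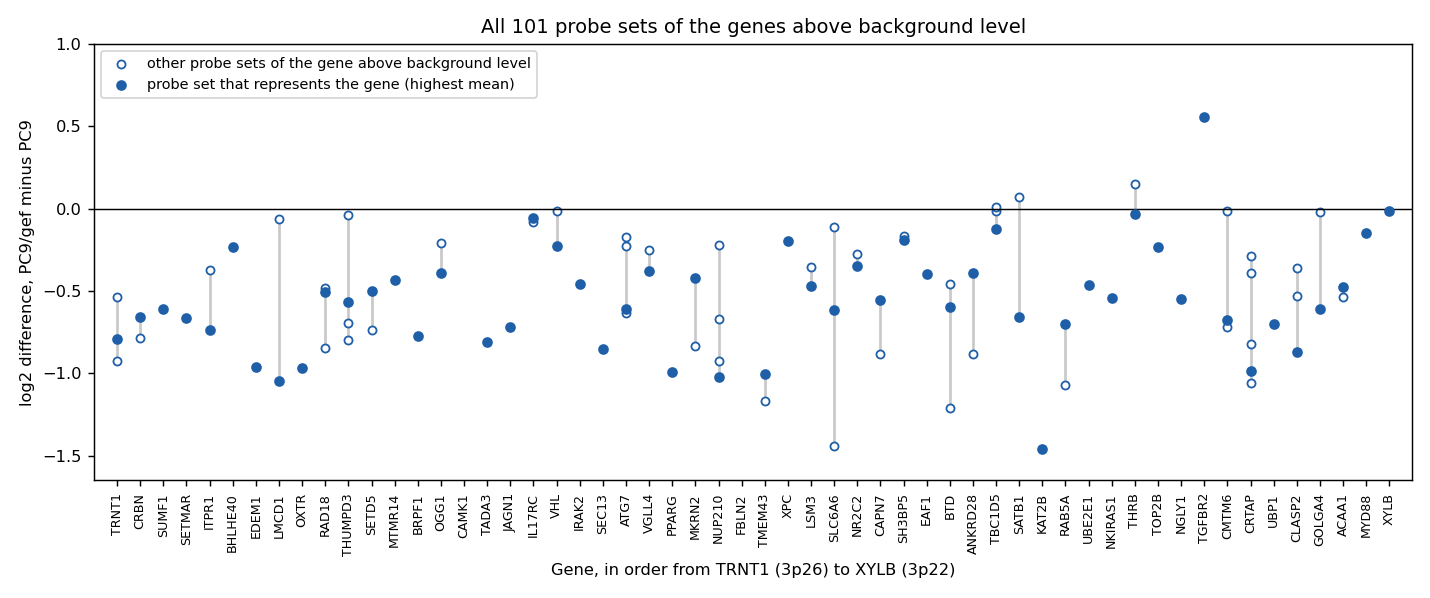
Each circle is 1 of the 101 probe sets above background level, by gene in the order of the list, with the log2 difference PC9/gef minus PC9, filled for the one that represents the gene and open for the others, and a grey line joins those of a gene. The 4 circles above 0 belong to TBC1D5, SATB1, THRB and TGFBR2.

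Genes of the same interval that are not on the list read alike. RefSeq places 126 further measured genes between TRNT1 and XYLB, of which 57 were above background. Of these 53 were negative, 40 were called lower and 1 was called higher, and the median was -0.51. Among all 11955 genes above background 6148 were negative, 22.2% were called lower and 23.8% higher. More than 2-fold lower were HRH1, the histamine H1 receptor, at -2.03, the antisense gene PRRT3-AS1 at -1.64, CTDSPL, a small phosphatase, at -1.18, PLCL2 at -1.16, GPD1L at -1.12 and TPRXL at -1.06. HRH1 read 6.70, 6.68 and 7.06 in PC9 and 4.83, 4.61 and 4.91 in PC9/gef. SUSD5, chosen here after its values were seen, was the one called higher, at 5.02, 4.96 and 5.01 against 5.56, 5.59 and 5.72. The running median of 5 genes above background was below 0 in all 110 windows of the interval, from -0.96 to -0.08, the latter at the dim gene CRELD1.

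The lower readings did not stop at XYLB. The 3 genes above background nearest to it on the far side were ACVR2B, EXOG and WDR48, at -0.25 (SE 0.12), -1.04 (SE 0.34) and -0.39 (SE 0.11), and none was called. Of the 8 measured genes distal to TRNT1 only LOC105379426 was above background, at -0.09. Chromosome 3 was then taken in blocks of 111 genes above background, the length of the interval. The first block, from TRNT1 to XYLB, had a median of -0.56 with 106 genes below 0, the second, ACVR2B to CYB561D2, had -0.47 with 105 and the third, TMEM115 to NIT2, had -0.54 with 101. The fourth, from TOMM70 to RAB7A, stood at 0.29 and the one after it, from ACAD9 to RSRC1, at 0.39. The next block, from MLF1 to MIR570HG, stood at -0.09 and the remaining 27 genes at -0.10. The lower values thus ran on past XYLB, while too few genes distal to TRNT1 were above background to show the other side. Over the whole chromosome the median of 694 genes above background was -0.16. The medians of the 22 other chromosomes with at least 100 such genes lay between -0.15 (chromosome 7) and 0.04, and no blocks were taken on them.

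**Figure D4:**
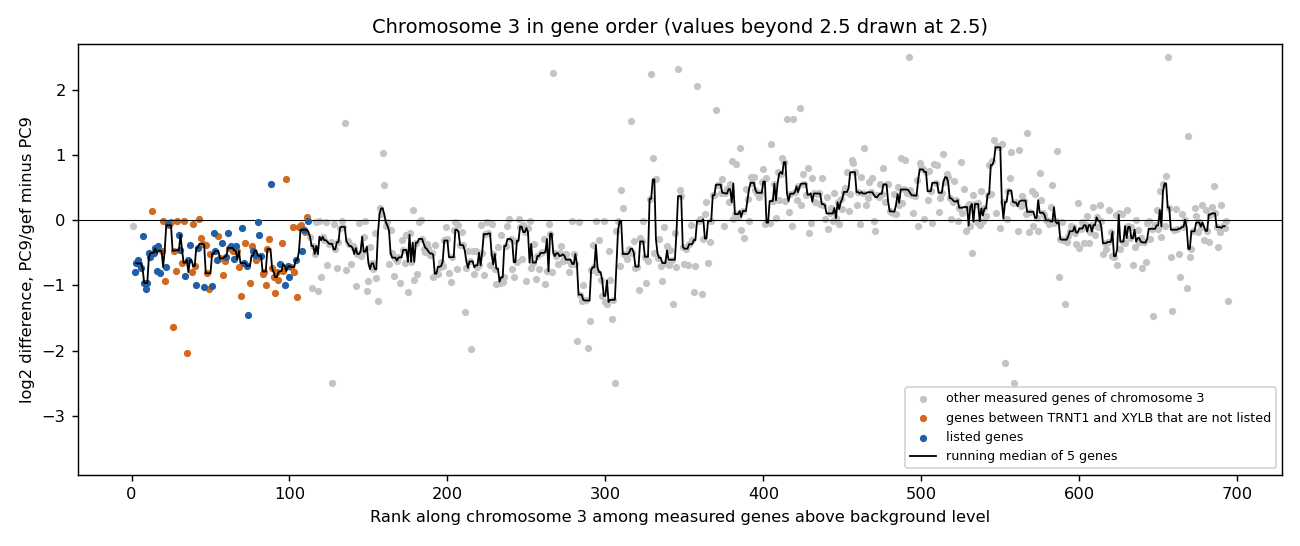
Points are genes of chromosome 3 above background level in order along the chromosome, with the log2 difference on the vertical axis, blue for the listed genes, orange for other genes between TRNT1 and XYLB and grey for the rest, and the black line is the running median of 5 genes. The line is below 0 in all 110 windows of the interval, stays mostly below 0 for the next blocks of 111 genes (medians -0.47 and -0.54) and lies mostly above 0 in the 2 blocks after those (0.29 and 0.39).

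Partners of the listed genes that lie outside the interval were called about as often as genes at large. In 10 lists of pathway partners, written from general knowledge, 143 genes were measured, of which 27 passed the limma test as lower and 38 as higher, that is 19.9% and 27.9% of those above background, beside 22.2% and 23.8% of all genes above background. The median difference was 0.00049. The counts of the single lists are small, from 7 to 18 genes measured, and are to be read against those same 22.2% and 23.8%. In all 65 of these called genes the 3 arrays of one line lay on one side of the 3 of the other. The genes were called on these same arrays, so this adds no support to the calls. Among all genes above background 33.8% had every PC9/gef array below every PC9 array, and 31.2% had every one above.

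Partners of XPC in nucleotide excision repair were higher in 9 and lower in 3 of 18 measured. DDB2, which finds ultraviolet damage with XPC, rose from 7.65 to 8.86 (limma adjusted p = 0.000425), and GTF2H1 and LIG1 rose by 0.55 and 0.48 (limma adjusted p = 0.0013 and 0.00512). Partners of OGG1 in base excision repair were lower in 5 and higher in 4 of 14. FEN1 rose by 0.39, while SMUG1 and MUTYH fell by 0.39 each (limma adjusted p = 0.00128, 0.00198 and 0.0299). Of 16 Fanconi genes, partners of FANCD2, 3 were lower and 1 higher. BRIP1 rose by 0.36, FANCC fell by 0.23 and FAAP24 by 0.21 (limma adjusted p = 0.0116, 0.0223 and 0.043).

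Of 12 genes of TGF-beta receptor signalling, 5 were higher and 3 lower. TGFBR1, the partner of TGFBR2 in the receptor, rose by 0.82 (limma adjusted p = 0.000647). TGFBR3, a co-receptor, fell by 1.29 and the ligand TGFB2 by 0.82 (limma adjusted p = 0.00039 and 0.00666). Of 17 genes of MYD88 signalling 3 were higher and 1 lower. TAB3, TLR2 and IL1R1 rose by 0.86, 0.85 and 0.55 (limma adjusted p = 4.64e-05, 0.0348 and 0.0216).

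KAT2B and TADA3 act in the SAGA and ATAC complexes, and of 16 other parts 2 were lower and 3 higher. The scaffold TRRAP fell by 0.92 and the paralog KAT2A by 0.55, while SGF29 rose by 0.30 (limma adjusted p = 0.000164, 0.00114 and 0.0276). Of 17 partners of SEC13 in the Y complex and the COPII coat, 5 were lower and 1 higher. NUP85, SEH1L and AHCTF1 fell by 0.28, 0.24 and 0.19 (limma adjusted p = 0.00299, 0.00147 and 0.00337). Of 7 cullin partners of VHL and CRBN, 1 was lower and 2 higher. DDB1 rose by 0.33, ELOB by 0.21 and CUL4A fell by 0.23 (limma adjusted p = 0.000838, 0.000307 and 0.00655).

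Lysosomal hydrolases, in the same organelle as GLB1, were higher in 5 of 14, while 7 did not pass the threshold and 2 were at background level. GAA, MAN2B1 and IDS rose by 1.16, 0.59 and 0.48 (limma adjusted p = 0.00088, 0.00627 and 0.000525). Hypoxia-induced genes, which lie downstream of the factors that VHL removes, were higher in 6 and lower in 4 of 13. EGLN3, ANKRD37 and P4HA1 fell by 1.23, 0.85 and 0.83 (limma adjusted p = 0.0365, 0.0138 and 0.00399).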

How the data were processed

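The values are the authors' log2 expression values per probe set of an Affymetrix Human Genome U133 Plus array, as deposited, 1 column per sample. GC-RMA with GeneSpring GX is given in the supplementary methods and RMA in the submitters' processing notes, and versions are not given in the sources used here. Depth is not defined for arrays, and the number of arrays limits the precision. The supplied annotation ties 41091 of 54675 probe sets to 1 gene, 1801 to more than 1 and 11721 to no gene, and 62 controls were dropped. Where a gene had several, the one brightest on average over the 6 arrays stood for it. Background level was 2.65, at or below which 54.4% of probe sets lay. The lines were compared with limma 3.58.1 in R 4.3.3 (no trend, not robust), with Benjamini-Hochberg adjustment over the 19775 genes and a threshold of 0.05, and the procedure was tested on simulated data. Members and lists were chosen with earlier results of these data known, as was the division of chromosome 3 into blocks, which was added after its values were seen. Named genes were all members, genes of the interval over 2-fold, the 3 genes nearest each end and up to 3 genes per partner list with the largest change past the threshold. Gene order along chromosome 3, promoter windows and symbols come from RefSeq (GRCh38.p14), while listed genes alone are shown in the order of the list. Plots used matplotlib 3.10.9 (Python 3.11.15). Alternatives were a replicate block, each array left out, median centring or quantile normalization, 2 filters for dim probe sets, moderation with a trend and robust, averaging the probe sets of a gene, dropping those named _x_at and _s_at, taking the one highest in PC9, and the methods' t-test.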

Additional observations from a re-analysis of the deposited data

How the results depend on the processing

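The median difference of the listed genes, -0.55 over all 56 measured, ran from -0.57 to -0.52 when an array was left out, and was -0.38 with the probe sets of a gene averaged, where dim probe sets enter, and -0.47 without _x_at and _s_at probe sets. The genes called lower, 44, numbered 36 to 42 when an array was left out and 27 without those probe sets, where 10 genes had no value and 7 fell to background level. The genes over 2-fold lower, 4, numbered 2 to 6 when an array was left out (2 where this was the first PC9 or the third PC9/gef array), and 1 with the mean over probe sets. SATB1 reversed to 0.069 without _x_at and _s_at probe sets, read there from a probe set near background level. Of 770 recomputed values of listed genes 731 moved by less than the replicate SD, 38 moved by more and 1 reversed. All of the 38 and the reversal came from averaging or dropping probe sets. With the mean over probe sets 26 genes moved by more and 30 did not. Without _x_at and _s_at probe sets 12 moved by more, 1 reversed and 33 did neither. Some other settings, such as the replicate block, cannot change a difference of means, so the 731 is no measure of stability. Among further genes of the interval, those called lower, 40, numbered 36 to 39 when an array was left out, and those called higher, 1, were 2 with the mean over probe sets, settings chosen after seeing the data. Partner genes called lower, 27, numbered 18 to 23 and those called higher, 38, numbered 29 to 36 when an array was left out. The replicate numbers did not pair the samples (correlations of same-numbered deviations -0.026, 0.016 and 0.048), and with the number as a block 37 listed genes were called lower and 17 partner genes. Counts under moderation with a trend and robust, and under the methods' t-test, are not given here. Whether the 44 held under those 2 settings is therefore not shown. Quantile normalization and median centring shifted the median over all genes by 0. The deposited arrays were already alike in scale, with the same 54.4% of probe sets at background level on each, so these settings could change little. With 3 arrays a line, an exact permutation test cannot give a two-sided p below 0.1, and the cause of these shifts was not tested. Signal near background level limits what can be seen of genes such as XYLB.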
